A study of Mus musculus with 6 samples.

Results

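A set of 9 genes of transforming growth factor beta (TGF-beta) signalling was followed through single-cell RNA sequencing of aged mouse lung. They are Tgfb1, Tgfb2, Tgfb3, Inhba, Ltbp1, Thbs1, Ctgf, Skil and Smad7, picked by gene symbol from the 31054 features counted, and all 9 were found. All animals were 21-month-old male mice on a C57BL/6 background. One group carried p16-CreERT2 with R26-LSL-DTR, in which Cre driven from the p16 (Cdkn2a) locus is meant to open a diphtheria toxin receptor in cells with high p16, and the control group carried p16-CreERT2 alone. Both groups had 5 days of tamoxifen, then, 2 weeks later, 5 days of diphtheria toxin and 2 weeks of recovery. Each of the 3 libraries labelled p16-DTR and the 3 control libraries was made from 20000 CD45- and 9000 CD45+ sorted cells, so the ratio of leukocytes to other cells was set by the sort. The labels number the samples without stating that each came from a different mouse, and p-values therefore measure the spread between these samples.

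TGF-beta ligands are secreted in a latent form: the propeptide stays around the mature dimer and is tied to the matrix by latent TGF-beta binding proteins such as Ltbp1, until integrins, proteases or thrombospondin 1 (Thbs1) free it. The freed ligand binds a pair of receptor kinases that phosphorylate Smad2 and Smad3, and these switch on target genes, among them Ctgf, a matricellular growth factor, and the inhibitors Skil and Smad7, which restrain the pathway in turn. Inhba encodes the subunit of activin A, a related ligand that uses the same Smads. In lung the pathway is known for fibroblast matrix production, for endothelial growth control and for steering CD4 T cells towards regulatory or interleukin 17 producing states.

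The 6 libraries held 13482 to 17332 barcodes with median depths of 16587.5 to 18149 unique molecular identifiers (UMIs) per barcode, and 91156 of 94392 barcodes were retained. Marker genes placed 68522 of the retained cells (75.2%) in 32 classes, of which 17 had at least 50 cells in every library and were tested. Pairs of libraries shared 59 to 94 barcodes. All levels are UMIs per 1000000 UMIs of the cells named, written CPM. Cdkn2a stood at 7.10, 8.57 and 7.31 CPM in libraries labelled p16-DTR against 1.15, 2.60 and 2.84 in control libraries. Cdkn2a, counted for the whole gene and not for the p16 transcript alone, was thus higher in the group meant to lose p16-high cells. This goes against the label, and the group is called by its label throughout. A transgene read, tdTomato, had UMIs in all 3 libraries labelled p16-DTR (0.250 to 0.314 CPM) and in none of the control libraries. Platelet-gated cells made up 1.32% of cells in control replicate 3 and 0.0998 to 0.195% in the other libraries. Levels come from the 3' ends of transcripts and are compared between classes and libraries for 1 gene, not between genes.

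Tgfb1, Tgfb2 and Inhba encode ligands. The cell range of Tgfb1 differs from those of Tgfb2 and Inhba, which were both highest in smooth muscle cells. The DNA before the transcription starts of these genes differs in base composition, so these 3 are printed. Each sequence is the 250 bases before the start in the RefSeq promoter table (GRCm38.p6), which holds 4 of the 9 genes (Tgfb1, Tgfb2, Inhba and Ltbp1). Capitals mark matches, on either strand, of 2 promoter motifs. The TATA box, which places the start of transcription, was searched as TATAAA. The GC box, which Sp1 family factors bind, was searched as GGGCGG. For Tgfb1 on the plus strand at chr7:25686752-25687001, Tgfb2 on the minus strand at chr1:186705990-186706239 and Inhba on the plus strand at chr13:16011601-16011850, the bases read 5′ to 3′ as follows.
Tgfb1: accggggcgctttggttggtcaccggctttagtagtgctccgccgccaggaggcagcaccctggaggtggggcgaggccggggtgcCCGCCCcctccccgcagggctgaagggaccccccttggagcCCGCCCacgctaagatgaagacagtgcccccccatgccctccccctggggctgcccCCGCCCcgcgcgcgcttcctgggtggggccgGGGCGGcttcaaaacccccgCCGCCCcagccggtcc
Tgfb2: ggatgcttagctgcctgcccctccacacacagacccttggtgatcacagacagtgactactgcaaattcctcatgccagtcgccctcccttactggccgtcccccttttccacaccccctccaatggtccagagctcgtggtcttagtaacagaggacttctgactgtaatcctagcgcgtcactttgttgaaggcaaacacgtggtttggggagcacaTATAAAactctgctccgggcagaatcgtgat
Inhba: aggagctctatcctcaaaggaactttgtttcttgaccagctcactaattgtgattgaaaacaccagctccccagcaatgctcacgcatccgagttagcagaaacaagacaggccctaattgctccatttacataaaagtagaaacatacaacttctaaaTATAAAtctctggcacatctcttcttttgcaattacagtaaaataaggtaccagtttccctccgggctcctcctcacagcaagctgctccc

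The Tgfb1 stretch was 75.2% G and C, held 5 GC box matches and had no TATA box. In Tgfb2 the share was 53.6% with 1 TATA box match and no GC box, and in Inhba 43.2% with 1 TATA box match and no GC box. Over all 32851 stretches of the same length in the table, the median share was 52.4%, the TATA box letters were present in 12.4% and the GC box letters in 32.7%. The stretch before Ltbp1 was 56.8% G and C and held neither motif. A match is a match of letters and no measure of binding.

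Tgfb1 (chr7:25687002-25705077 in GRCm38) was highest in platelets and leukocytes. Its level in platelet-gated cells, which store the protein in granules, ran from 680 to 1126 CPM over the 6 libraries and lay above the range of every other class. Classical monocytes followed at 293 to 385, type 2 innate lymphoid cells at 144 to 511 and nonclassical monocytes at 209 to 388, and these 3 ranges overlapped. Of the 32 classes 30 had a mean of at least 10, and the median class mean was 108. Alveolar fibroblasts, the matrix-producing cells of the alveolar wall, had a mean of only 15.2. Of all 170572 Tgfb1 UMIs, 17.1% lay in classical monocytes, which were 3.19% of the cells.

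Tgfb2 and Tgfb3 showed the reverse range. Tgfb2 (chr1:186622792-186705989) was highest in smooth muscle cells at 307 to 775 CPM, then in mesothelial cells at 245 to 482 and pericytes at 284 to 429. Lymphatic endothelial cells (mean 226) and alveolar type 1 cells (mean 186) came next, each neighbour overlapping the one before, while the median class mean was 2.55. Tgfb3 (chr12:86056745-86079041) was likewise highest in smooth muscle, at 105 to 226, with peribronchial fibroblasts at 74.2 to 131 and adventitial fibroblasts at 73.1 to 120. Lymphatic endothelial cells (68.7 to 97.7) and mesothelial cells (71.1 to 95.7) completed this set. Below these 5 came a gap, since interstitial macrophages, the sixth class, reached 26.4 at most. Alveolar macrophages had no Tgfb3 UMI in the 67 cells gated, a number too small to show its absence. Across the 32 class profiles, as log2(level + 1) over control libraries, Tgfb2 and Tgfb3 had r = 0.69, while Tgfb1 had r = -0.46 with Tgfb2 and -0.38 with Tgfb3; all points share the same 3 libraries.

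Inhba (chr13:16011851-16031621), the activin A subunit, was scarce, with 6989 UMIs in all retained cells of the 6 libraries. Smooth muscle cells had 53.7 to 93.2 CPM and peribronchial fibroblasts 9.51 to 41.3, with mesothelial cells at 6.64 to 38.7 and adventitial fibroblasts at 11.96 to 17.8. Basophils ranked second by mean only through 1 library: control replicate 1 stood at 150 and the other 5 between 0 and 54.7. Neutrophils, at 9.07 to 22.5, were the other leukocyte class with a mean above 10.

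Ltbp1, which holds the latent ligand, and Thbs1, which can free it, shared several leading classes. Ltbp1 (chr17:75005568-75392512) was highest in alveolar fibroblasts, at 644 to 1323 CPM, above adventitial fibroblasts at 431 to 558. That class also held 56.0% of all Ltbp1 UMIs while making up 17.5% of the cells. Smooth muscle at 302 to 576 and platelets at 222 to 636 overlapped the adventitial range, and 12 classes had a mean of at least 10.

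Thbs1 (chr2:118111876-118127133) encodes thrombospondin 1, a granule protein of platelets as well as a matrix protein. Platelets led at 4800 to 8646 CPM, above peribronchial fibroblasts at 3178 to 4643. Smooth muscle (1671 to 3229), classical monocytes (1269 to 1758) and alveolar fibroblasts (670 to 1347) followed, each overlapping the class before. Neutrophils followed at a mean of 868. Alveolar fibroblasts held the largest share of Thbs1 UMIs too, at 39.0%, and the profiles of Ltbp1 and Thbs1 over the 32 classes had Pearson r = 0.46, given as a description. Arterial endothelial cells were lowest, with 17 UMIs in 262 cells. In platelets the libraries labelled p16-DTR had 4800, 5859 and 5317 and the control libraries 7229, 8646 and 6400. These groups did not overlap, but the class had as few as 13 cells in a library and was not tested.

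Of the target genes, Ctgf (chr10:24595442-24598683, Ccn2 in the annotation) was a gene of contractile and alveolar wall cells. Smooth muscle had 1647 to 2766 CPM, above alveolar type 1 cells, the flat gas exchange epithelium, at 473 to 1200. Alveolar fibroblasts at 444 to 789 and pericytes at 264 to 552 overlapped with these. The median class mean was 2.97, and plasmacytoid dendritic cells had no UMI. Its profile over classes was closest to that of Tgfb2 among the 9 genes (r = 0.84), and in the whole table of 15152 genes closest to Cyr61 (r = 0.92), a matricellular gene of the same family, then Samd4 and Hspg2.

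Skil (chr3:31095058-31122577), which encodes the Smad repressor SnoN, was found in all 32 classes at a mean of at least 10. Interstitial macrophages had 541 to 656 CPM, and type 2 and type 1 conventional dendritic cells had 417 to 612 and 344 to 611. The median class mean was 166, so the top class was 3.52 times the median class, against 752 times for Ctgf. The genes closest to Skil were Nfkbib (r = 0.81), Nfkb2 (r = 0.80) and Eif4a1 (r = 0.79).

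Smad7, on chromosome 18, encodes the inhibitory Smad that blocks the receptor and recruits ubiquitin ligases to it. It was a blood endothelial gene: arterial cells had 385 to 566 CPM, general capillary cells 329 to 574 and venous cells 277 to 557, which overlapped. Aerocytes, the large capillary cells of gas exchange, lay lower at 223 to 262 and above B cells at 133 to 187. Lymphatic endothelial cells stood at a mean of 11.1. General capillary cells held 41.3% of all Smad7 UMIs.

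The closest profiles to the other 7 genes were, as descriptions over the same 32 classes, Mis18a, Inpp5d and Cfl1 for Tgfb1 (r = 0.865 to 0.858), Hspg2, Cyr61 and Hoxb3os for Tgfb2 (0.882 to 0.874) and Jph1, Cacna2d3 and Cd109 for Tgfb3 (0.847 to 0.840). For Ltbp1 they were Casp12, Rhoj and Colec12 (0.882 to 0.849), and for Inhba Mapk4, Medag and Erbb4 (0.800 to 0.742). Thbs1 had the loosest match, Rhou at r = 0.66, followed by Myl9 and Tlcd2. Smad7 was matched by Arglu1 (r = 0.77), Nup160 and Lrch3.

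**Figure D1:**
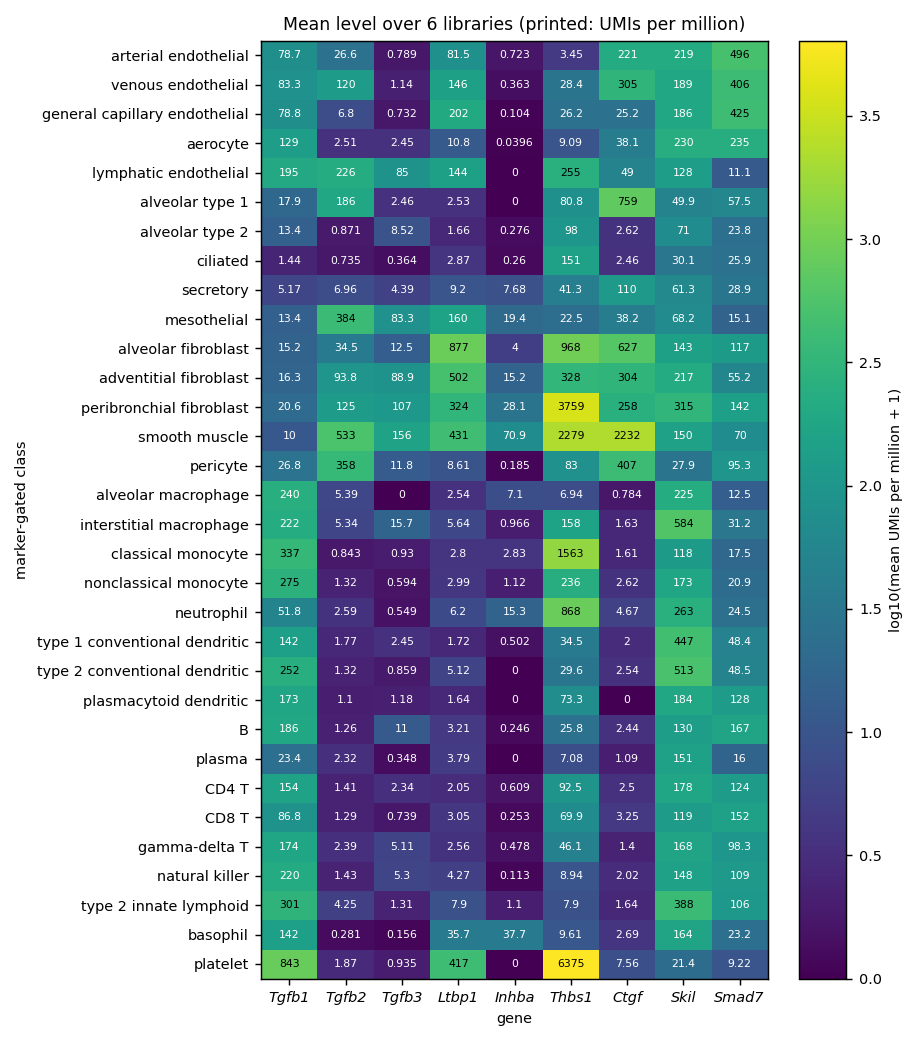
Mean level of the 9 genes (columns) in 32 marker-gated classes (rows) over 6 libraries, printed in CPM and coloured on a log10(level + 1) scale. Tgfb1 spreads over leukocytes and peaks in platelets, while Tgfb2, Tgfb3 and Ctgf peak in smooth muscle, Ltbp1 in alveolar fibroblasts and Smad7 in blood endothelium.

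The comparison of the libraries labelled p16-DTR with control libraries asked whether any of these genes differed after the toxin course. In sums over all retained cells none of the 9 passed edgeR's quasi-likelihood test with Benjamini-Hochberg adjustment at 0.05, where the share of all 21630 genes called was 0% (0 genes). At an unadjusted p under 0.05, 3 of the 9 passed, and so did 23.3% of all genes, so this share is no result about the 9. DESeq2 called 1 of the 9, Smad7, and 2699 genes in all. In such sums fewer cells of a type and less RNA per cell cannot be told apart.

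Smad7 had the lowest p of the 3. The libraries labelled p16-DTR stood at 190, 199 and 232 CPM and the control libraries at 126, 176 and 153, a log2 fold change of 0.50 (SE 0.13, edgeR adjusted p = 0.139; DESeq2 adjusted p = 0.0151). The groups did not overlap, with the lowest p16-DTR library just above the highest control library. Beside this value, general capillary cells, which held 41.3% of Smad7 UMIs, numbered 3232 to 3752 per library against 2534 to 3034. In the same sums immediate early genes stood at 7584 to 8191 against 8499 to 10731 CPM and genes of the YAP and serum responses at 488 to 636 against 825 to 1157. Alveolar macrophage (77.7 to 125 against 43.1 to 63.1), interstitial macrophage (161 to 315 against 104 to 120) and classical monocyte markers (433 to 581 against 334 to 359) were higher. Pericyte (48.0 to 50.8 against 64.8 to 101) and smooth muscle markers (54.3 to 76.7 against 93.9 to 113) were lower. All of these were apart, and the part of cell numbers and of these lists in the values of the 3 genes was not tested. Tgfb2 stood at 28.6, 32.6 and 21.0 against 46.6, 37.1 and 37.0 (log2 fold change -0.51, SE 0.18, edgeR adjusted p = 0.179). Tgfb3 stood at 13.4, 12.3 and 10.4 against 22.4, 15.96 and 15.4 (log2 fold change -0.53, SE 0.18, edgeR adjusted p = 0.170). Both ligands were thus below every control library in all 3 libraries labelled p16-DTR. Beside them, alveolar fibroblasts, which held 21.7% of all Tgfb2 and 17.5% of all Tgfb3 UMIs, numbered 6561 against 9424 gated cells (1744 to 2688 per library against 2122 to 4477), and adventitial fibroblasts, which held 13.6% and 28.5%, numbered 1087 against 1747 (268 to 415 against 329 to 936). Both ranges overlapped, and control replicate 1 alone held the highest number of each. Smooth muscle cells numbered 75 against 153, pericytes 174 against 340 and mesothelial cells 84 against 164. Venous endothelial cells, with 9.46% of Tgfb2 UMIs, numbered 1196 against 1400, and lymphatic endothelial cells, with 6.41% and 5.58%, numbered 583 against 563.

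The other 6 genes overlapped between groups. Tgfb1 had 95.5 ± 6.19 against 94.6 ± 6.54 CPM (mean ± SD, n = 3 libraries each) and Skil 170 ± 7.84 against 181 ± 9.13. Ltbp1 had 313 ± 56.3 against 296 ± 27.0, Thbs1 498 ± 79.3 against 494 ± 83.7, and Ctgf 210 ± 49.9 against 195 ± 6.61. Inhba had 3.50 ± 0.380 against 4.16 ± 1.28. Their edgeR adjusted p-values ran from 0.564 for Tgfb1 to 0.835 for Thbs1.

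**Figure D2:**
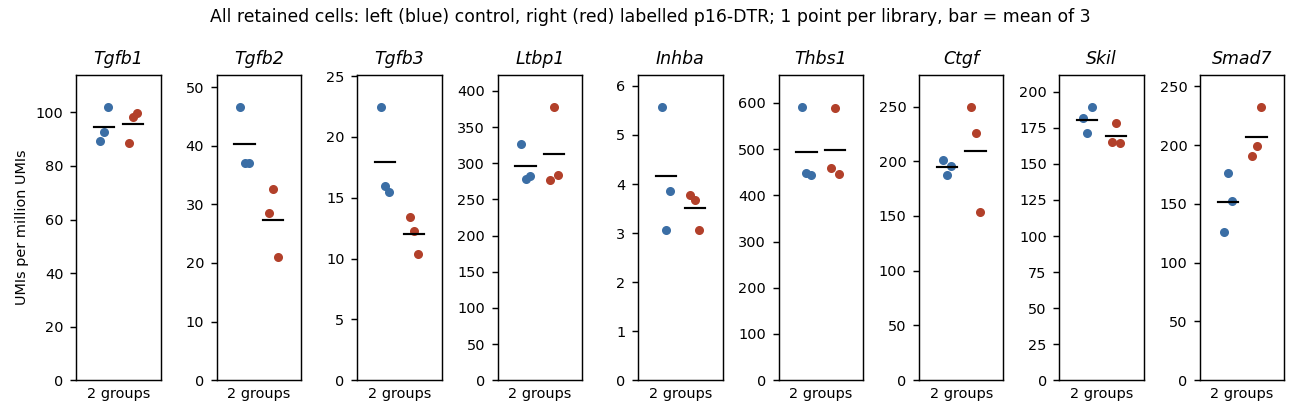
Level of each gene (y axis, CPM, 1 scale per gene from 0) in all retained cells, with control libraries in blue at the left and libraries labelled p16-DTR in red at the right; points are libraries and bars are means of 3. The groups do not overlap for Tgfb2, Tgfb3 and Smad7, and no gene passed the edgeR test. At an unadjusted p under 0.05, 23.3% of all genes passed, and the share of all genes without overlap was not counted.

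Within classes, 121 of the 153 pairs of a gene and a tested class passed the filter on low counts, and 4 of them (3.31%) passed the edgeR test, 2 higher and 2 lower. Over all genes and the same 17 classes the share called was 0.605%. With the looser rule of an unadjusted p under 0.05 and groups that did not overlap, 20 pairs (16.5%) were counted, where all genes gave 10.8%. The 4 pairs were Smad7 in venous endothelial cells and Thbs1, Skil and Tgfb1 in CD4 T cells. In these 2 classes many genes were called: 3.27% of 12429 in venous endothelial cells and 2.58% of 12208 in CD4 T cells. These shares depended on single libraries: 406 venous calls became 74 without p16-DTR replicate 3, with 173 to 290 in the other 5 fits that left out a library. In CD4 T cells 315 calls became 50 without p16-DTR replicate 2 and 72 without control replicate 2, with 119 to 365 in the other 4. 

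**Figure D3:**
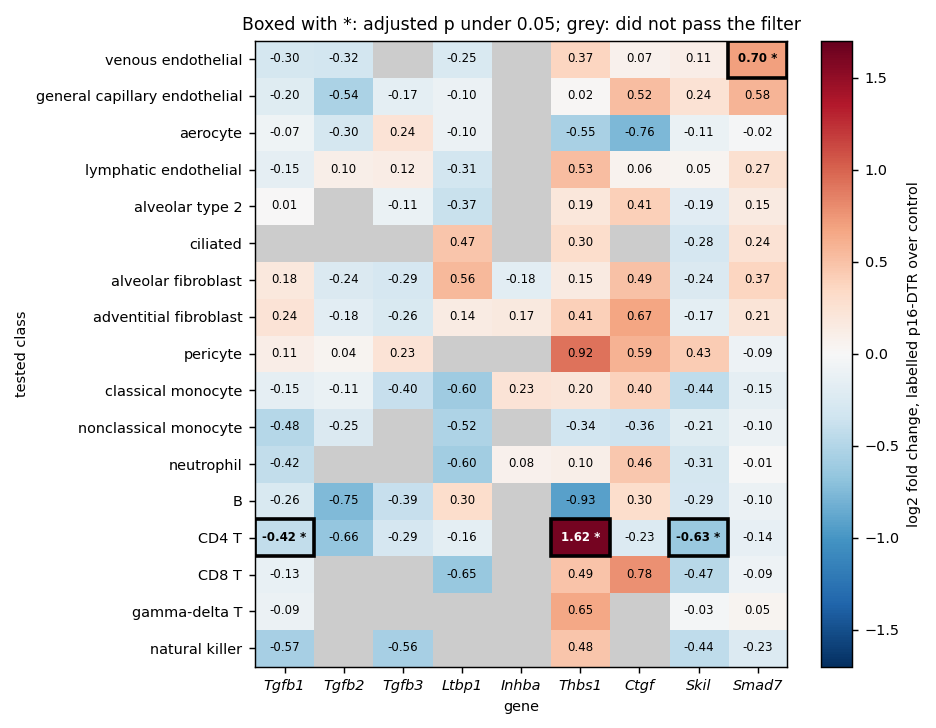
Log2 fold change (colour and number; labelled p16-DTR over control) of the 9 genes (columns) in the 17 tested classes (rows). The 4 boxed cells with an asterisk passed the edgeR test (Smad7 in venous endothelial cells and Thbs1, Skil and Tgfb1 in CD4 T cells), grey marks pairs that did not pass the filter, and Skil is below 0 in 13 of 17 rows.

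Smad7 rose in venous endothelial cells. It stood at 472, 472 and 557 CPM in libraries labelled p16-DTR and at 277, 353 and 303 in control libraries (log2 fold change 0.70, SE 0.11, edgeR adjusted p = 0.0146; 1196 against 1400 cells). Every p16-DTR library lay well above the highest control library. The difference was carried by many cells: 38.1 to 44.0% of venous cells had at least 10 Smad7 UMIs in the libraries labelled p16-DTR against 9.70 to 23.3% in the controls, at median depths of 17759 to 18058 and 16828 to 18449 UMIs. The call was lost when p16-DTR replicate 3, the highest library, was left out (log2 fold change 0.63, edgeR adjusted p = 0.0650).

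General capillary cells, the most numerous endothelial class, gave like Smad7 values just outside the threshold. They were 464, 470 and 574 against 329, 379 and 332 CPM (log2 fold change 0.58, SE 0.10, edgeR adjusted p = 0.0501; DESeq2 adjusted p = 7.7e-06), where 0.913% of 15772 genes were called and none of the 9. Those 144 calls became 7 without p16-DTR replicate 1, 15 without p16-DTR replicate 3, 21 without control replicate 1 and 36 without control replicate 3. The groups were again apart for Smad7, and 27.1 to 42.8% of cells against 10.9 to 20.3% had at least 10 Smad7 UMIs. The effect in venous cells was not called different from that in general capillary cells (difference 0.15, edgeR adjusted p = 0.487).

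Aerocytes differed from venous cells. In aerocytes the 6 values were 223, 245 and 224 against 262, 226 and 232, with full overlap (log2 fold change -0.02, SE 0.070), and the effect in venous cells was larger by 0.74 on the log2 scale (edgeR adjusted p = 0.0404). In lymphatic endothelial cells, where Smad7 was low, the difference from the venous effect was 0.48 and was not called (edgeR adjusted p = 0.812). Arterial cells, too few to test, gave 557, 414 and 566 against 541, 515 and 385. Among the 16 other tested classes the venous effect was larger than each, and the difference was called against aerocytes and against natural killer cells (0.96, edgeR adjusted p = 0.0302).

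Other genes that TGF-beta is known to induce were examined from a list of 14. This list, like the other lists, was chosen with earlier results of these data known, so its counts are descriptions. In venous cells, where 3.27% of all genes were called, 3 of 12 tested were called, all higher. Pmepa1, a membrane protein that sequesters Smads, stood at 74.6, 83.0 and 70.5 against 47.5, 46.4 and 54.4 CPM (log2 fold change 0.63, SE 0.094, edgeR adjusted p = 0.0126). Klf10, the TGF-beta inducible early gene, stood at 95.3, 91.4 and 101 against 44.2, 41.1 and 55.3 (1.04, SE 0.11, edgeR adjusted p = 0.00440). The groups overlapped for neither gene. Eln, the elastin gene, stood at 674, 897 and 836 against 424, 531 and 341 (0.91, SE 0.17, edgeR adjusted p = 0.0225). The call for Eln was lost without p16-DTR replicate 2 (adjusted p = 0.0672), p16-DTR replicate 3 (0.1004) or control replicate 1 (0.0656).

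The median log2 fold change of these 12 targets in venous cells was 0.33, with 8 above 0 and 4 below, and that of all genes was -0.01. Such a median was not particular to venous cells. The list had 0.66 in pericytes (9 of 11 above 0), 0.67 in gamma-delta T cells (4 of 5), 0.39 in alveolar fibroblasts (13 of 14) and 0.26 in adventitial fibroblasts (10 of 14). None was called in these classes. Other classes had medians below 0, such as -0.19 in nonclassical monocytes. In general capillary cells, where 0.913% of all genes were called, 2 of 13 were called, and they were again Pmepa1 (0.57, SE 0.069, edgeR adjusted p = 0.0274) and Klf10 (1.08, SE 0.13, edgeR adjusted p = 0.0304); they were named after their values were seen. The Klf10 call was lost without control replicate 1 (adjusted p = 0.0775) or 3 (0.0696), and the Pmepa1 call without p16-DTR replicate 1 (0.0729), p16-DTR replicate 3 (0.0643) or control replicate 1 (0.0674). The list's median there was 0.16. In arterial cells, not tested, Klf10 had 87.5, 85.8 and 121 against 43.5, 39.0 and 59.3 CPM and Pmepa1 162, 164 and 135 against 113, 119 and 88.2, both without overlap. In lymphatic cells neither was called (log2 fold change 0.12 and 0.04), nor in aerocytes, where the groups overlapped for both (0.38 for Pmepa1, edgeR adjusted p = 0.173, and 0.24 for Klf10, adjusted p = 0.298).

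Among the parts of the pathway upstream of these targets, none of 8 receptors and none of 8 Smads and partners tested in venous cells was called, with medians of 0.03 and 0.11. Bambi, a decoy receptor, fell by 0.50 on the log2 scale (SE 0.11, edgeR adjusted p = 0.0494), and its call was lost in 5 of 6 fits that left out a library (adjusted p up to 0.1499). Fbn1, the fibrillin 1 gene that anchors latent complexes, fell by 0.72 (SE 0.095, edgeR adjusted p = 0.0102). Ltbp1 was 135, 123 and 138 against 175, 141 and 162 CPM in these cells and was not called (edgeR adjusted p = 0.178).

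**Figure D4:**
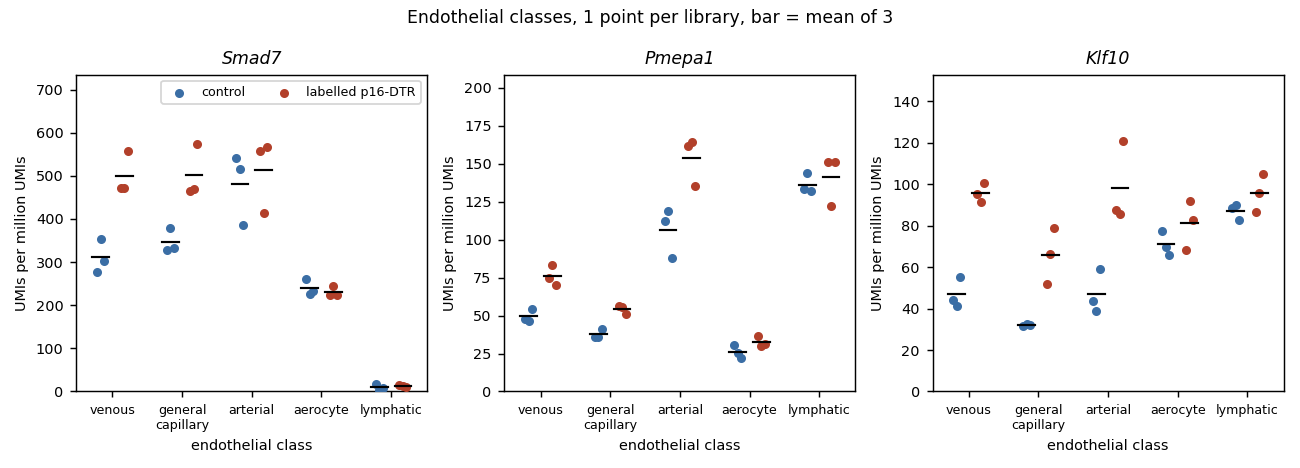
Level (y axis, CPM from 0) of Smad7, Pmepa1 and Klf10 in 5 endothelial classes, control libraries in blue and libraries labelled p16-DTR in red, 1 point per library with a bar at the mean of 3. In venous and general capillary cells the groups do not overlap for any of the 3 genes, while Smad7 in aerocytes and lymphatic cells overlaps; arterial cells were not tested.

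Immediate early genes, which respond to dissociation, were lower in the 2 classes where these values were higher, and also in aerocytes and lymphatic cells. Their summed level in venous cells was 8351 to 10514 CPM in libraries labelled p16-DTR against 12439 to 14387 in the controls. Of the 14, 9 were lower and 1 higher without overlap, and the share of all genes without overlap was not counted in single classes. At an unadjusted p under 0.05, 10 of the 14 passed, beside 2220 of all 12429 genes. In general capillary cells the sums were 5624 to 6768 against 7408 to 10100, with 8 of 14 lower without overlap. There 9 of the 14 had an unadjusted p under 0.05, beside 3694 of all 15772 genes. In aerocytes and lymphatic cells, where Smad7, Pmepa1 and Klf10 were not called, 11 and 12 of the 14 had values below 0 (medians -0.30 and -0.29). At an unadjusted p under 0.05, 8 of the 14 passed in aerocytes, beside 2036 of all 12255 genes. In lymphatic cells 11 passed, beside 1478 of all 11205 genes, and 3 were called lower. The called ones in venous cells were Nr4a1 (log2 fold change -1.41), Egr1 (-1.17), Junb (-0.65), Zfp36 (-0.64) and Ier2 (-0.64), all lower, and Hspa1b, a heat shock gene, higher (1.15), with edgeR adjusted p-values from 0.000127 to 0.0162. The calls of Junb and Ier2 were lost without p16-DTR replicate 3 (adjusted p = 0.0629 and 0.0615). In general capillary cells Egr1 was called (-1.33, edgeR adjusted p = 0.0448), chosen after its value was seen, and its call was lost in 4 of 6 fits that left out a library (adjusted p up to 0.120). The part of these genes' level in the Smad7, Pmepa1 and Klf10 values was not tested. Other lists also moved in venous cells without overlap of their sums. Genes of the YAP and serum responses summed to 344 to 499 against 506 to 652 CPM, with 1 of 6 lower without overlap. Nonclassical monocyte markers summed to 771 to 815 against 621 to 664, alveolar type 1 markers to 483 to 553 against 355 to 475, and type 2 innate lymphoid markers to 714 to 753 against 824 to 953. In all retained cells the nonclassical monocyte sum was 494 to 565 against 339 to 514, below the venous sums in both groups, and the groups overlapped. A list's name gives the class it gates, not the source of its UMIs in endothelial cells. Adventitial fibroblast markers summed to 25.0 to 31.2 against 40.8 to 56.4 and classical monocyte markers to 8.27 to 9.88 against 4.15 to 6.46. Type 1 conventional dendritic markers summed to 409 to 439 against 388 to 394, B cell markers to 3.96 to 5.79 against 6.30 to 6.73 and ciliated markers to 2.04 to 3.58 against 4.50 to 5.38. Of these, the nonclassical monocyte, type 2 innate lymphoid and classical monocyte sums were also apart in general capillary cells, at 1208 to 1369 against 1053 to 1135, 468 to 492 against 570 to 639 and 8.61 to 10.3 against 5.55 to 6.82. General capillary cells also had arterial markers summing to 499 to 615 against 470.0 to 480, with 1 gene higher and 1 lower without overlap. Their type 1 conventional dendritic markers were apart in the opposite direction to venous cells, at 517 to 572 against 586 to 731. Their B cell, smooth muscle, mesothelial and ciliated sums were lower without overlap, at 1.64 to 8.97 over the 4 lists against 2.85 to 12.4. The part of these lists was not tested either.

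Alveolar fibroblasts, where 0.981% of 16416 genes and none of the 9 were called, gave 3 pairs without overlap. The share of all genes without overlap was not counted in this class, so the 3 pairs have no matching background. At an unadjusted p under 0.05, 4 of the 9 passed, beside 3657 of the 16416 genes. Smad7 had 120, 147 and 126 against 98.2, 111 and 101 CPM (log2 fold change 0.37, edgeR adjusted p = 0.0745). Ctgf had 789, 737 and 658 against 444, 575 and 561 (0.49, edgeR adjusted p = 0.0778; DESeq2 adjusted p = 0.00228). Tgfb3 had 11.3, 11.5 and 10.7 against 15.2, 12.96 and 13.3 (-0.29, edgeR adjusted p = 0.109). Ltbp1, whose main source these cells are, overlapped between groups at 750, 1323 and 1038 against 644, 757 and 748, with its 2 highest values in the libraries labelled p16-DTR. Beside these values, immediate early genes in the class summed to 9666 to 10903 against 11158 to 13660 CPM, with 4 of 14 lower and 1 higher without overlap. At an unadjusted p under 0.05, 9 of the 14 passed, beside 3657 of all 16416 genes. Genes of the YAP and serum responses, of which Ctgf is a known target, summed to 1658 to 1794 against 2362 to 2590. Most of this sum was Cyr61, at 1653, 1645 and 1526 against 2350, 2425 and 2198. Of the 6 genes, 3 were lower without overlap, and log2 fold changes were above 0 for 3 and below for 3 (median -0.18). At an unadjusted p under 0.05, 3 of the 6 passed. Of the cell type markers, venous endothelial ones summed to 743 to 827 against 834 to 890 and arterial ones to 104 to 143 against 147 to 175. Peribronchial fibroblast ones summed to 43.5 to 47.7 against 34.8 to 37.0 and interstitial macrophage ones to 13.8 to 16.7 against 20.3 to 30.8. Single genes did not all follow these sums. Without overlap, the venous list had 1 gene higher and 0 lower. The arterial and interstitial macrophage lists each had 2 higher and 1 lower, and the peribronchial list 2 higher and 0 lower. Nonclassical monocyte, plasma, basophil and platelet markers were also apart. The part of these lists in the values was not tested.

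Of the other target genes 13 of 14 had a value above 0 in alveolar fibroblasts with a median of 0.39, and none was called. The median of all genes there was 0.01. At an unadjusted p under 0.05, 3 of the 14 passed, beside 3657 of all 16416 genes, so this count is no result about the list. From the remaining lists Ltbp2, a matrix protein related to Ltbp1 (log2 fold change 2.20, edgeR adjusted p = 0.0467), and Fstl3, an activin antagonist (0.40, edgeR adjusted p = 0.0495), were higher, and Cyr61 was lower (-0.51, edgeR adjusted p = 0.0499). These 3 genes lie outside the naming rule and were picked after their values were seen. Leaving out a library kept the call in 1 of 6 fits for Ltbp2 (adjusted p up to 0.1195), 1 of 6 for Fstl3 (up to 0.153) and 0 of 6 for Cyr61 (up to 0.154). All calls in the class fell from 161 to 1 without p16-DTR replicate 3, 3 without control replicate 1 and 1 without control replicate 3. In pericytes Ctgf had 431, 552 and 485 against 312, 400 and 264 CPM (0.59, edgeR adjusted p = 0.215). Its fold change was above 0 in 11 of the 14 classes in which it passed the filter, and below 0 most clearly in aerocytes (-0.76, edgeR adjusted p = 0.178).

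CD4 T cells had 3 of the 4 calls: Skil and Tgfb1 were lower, and the call of Thbs1 rested on a few cells that also carried monocyte markers. Thbs1 stood at 143, 131 and 145 CPM in libraries labelled p16-DTR and at 57.7, 33.2 and 43.8 in control libraries (log2 fold change 1.62, SE 0.16, edgeR adjusted p = 0.00650; 1048 against 997 cells). The groups were far apart, and the call was kept in each of the 6 fits that left out a library. The UMIs, however, lay in few cells: 57 of 2045 cells had 10 or more Thbs1 UMIs and held 92.4% of them. Those 57 had a median of 54391 UMIs against 14846.5 in the rest, and 51 of them had a UMI of at least 3 of the 5 classical monocyte markers (Ly6c2, Ccr2, F13a1, Vcan and Ms4a4c). In classical monocytes 79.2% of cells had 10 or more Thbs1 UMIs.

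When the 129 CD4 T-gated cells with at least 3 of these markers were left out, Thbs1 stood at 5.93, 10.7 and 17.6 CPM in libraries labelled p16-DTR against 8.62, 4.50 and 20.9 in the controls. The groups then overlapped fully (log2 fold change -0.01, SE 0.53, edgeR adjusted p = 0.998). The cells left out were 5.97 to 8.29% of the class in the libraries labelled p16-DTR against 3.06 to 7.42% in the controls, and they held 88.4% of its Thbs1 UMIs. The number of Thbs1 UMIs in them was 580, 867 and 1038 against 258, 181 and 208. In the 533 cells without any UMI of a platelet, monocyte, interstitial macrophage or neutrophil marker, Thbs1 stood at 7.17, 7.22 and 7.17 against 6.09, 3.42 and 3.21, low but apart, and did not pass the filter for a test. Both choices of cells were made after the data were seen. No doublet caller was run, and the part of barcodes that hold a T cell and a monocyte was not tested.

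Skil fell in CD4 T cells. It stood at 133, 136 and 153 CPM in libraries labelled p16-DTR and at 203, 208 and 232 in control libraries (log2 fold change -0.63, SE 0.086, edgeR adjusted p = 0.0139). All 3 p16-DTR libraries were below the lowest control library, and Skil UMIs were found in 62.8 to 69.6% of cells against 76.2 to 81.4%, at median depths of 13717 to 15205 and 15533 to 16411. Without the cells with monocyte markers the value was -0.65 (edgeR adjusted p = 0.00879). In the 533 cells without platelet or myeloid marker UMIs the groups were apart but Skil was not called (-0.83, edgeR adjusted p = 0.0622). The call was also lost without p16-DTR replicate 2 (adjusted p = 0.0708).

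Tgfb1 was also lower in CD4 T cells, at 138, 137 and 124 against 173, 180 and 172 CPM (log2 fold change -0.42, SE 0.068, edgeR adjusted p = 0.0252). The groups did not overlap. The value was -0.58 without the cells with monocyte markers (edgeR adjusted p = 0.0144), and -0.36 and not called in the 533 cells without platelet or myeloid marker UMIs (edgeR adjusted p = 0.511). The call was also lost without p16-DTR replicate 2 (adjusted p = 0.0855), p16-DTR replicate 3 (0.0686), control replicate 2 (0.0815) or control replicate 3 (0.0769).

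Genes of interleukin 17 producing T cells moved with both. The summed level of Il17a, Il17f, Il23r and Ccr6 in the class was 25.1 to 171 CPM in libraries labelled p16-DTR against 483 to 720.0 in the controls, and all 4 genes were lower without overlap. Il17a alone stood at 62.7, 2.98 and 2.89 against 297, 299.96 and 191. Without every cell with a UMI of these 4 genes, 1495 cells remained. In them Tgfb1 stood at 137, 132 and 117 against 151, 129 and 128 and overlapped (log2 fold change -0.10, edgeR adjusted p = 0.638). Skil stood at 127, 138 and 151 against 175, 170 and 187, still apart but not called (-0.38, edgeR adjusted p = 0.0670).

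Furin, the protease that cleaves the TGF-beta propeptide, stood at 154, 80.0 and 91.8 against 305, 357 and 316 CPM (log2 fold change -1.62, SE 0.23, edgeR adjusted p = 0.0176), and without the interleukin 17 gene cells at 63.8, 76.3 and 69.6 against 78.5, 114 and 86.7 (-0.44, adjusted p = 0.159). Tgfbr2, the ligand-binding receptor, fell by 0.66 on the log2 scale (SE 0.11, edgeR adjusted p = 0.0260) and had -0.52 without those cells (adjusted p = 0.0809). Acvr2a, an activin receptor, had -0.84 (edgeR adjusted p = 0.0376), and Smad3 had -0.41 (edgeR adjusted p = 0.0489). Without the interleukin 17 gene cells these values were -0.02 and 0.01 (adjusted p = 0.963 and 0.990). Tgif1, a Smad corepressor, had -0.45 (edgeR adjusted p = 0.0489) and -0.47 without them (adjusted p = 0.0558).

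In counts, 2 of 7 receptors, 2 of 8 Smads and partners, and 1 of 11 latency genes were called in CD4 T cells, all lower, and none of 10 other target genes, where 2.58% of all genes were called in the class. Junb (log2 fold change -0.38) was called lower and Dusp1 (0.54) higher among the immediate early genes. Their sum was 4170 to 4485 against 4534 to 4675 CPM, with 5 of 14 higher and 4 lower without overlap. At an unadjusted p under 0.05, 11 of the 14 passed, beside 2182 of all 12208 genes. Natural killer markers summed to 136 to 190 against 33.8 to 45.4 and regulatory T cell genes to 620 to 636 against 487 to 592. The genes of the regulatory list differed in direction. Ikzf2 was higher without overlap (526, 521 and 529 against 424, 377 and 344). Il2ra was lower without overlap (60.3, 65.6 and 57.3 against 127, 147 and 113), and Foxp3 overlapped. Alveolar type 1 markers summed to 163 to 191 against 94.1 to 126, adventitial fibroblast markers to 22.403 to 29.2 against 13.8 to 22.392 and arterial markers to 6.95 to 8.55 against 4.81 to 6.09. Type 2 innate lymphoid markers summed to 1863 to 2148 against 2163 to 2715 and alveolar fibroblast markers to 32.7 to 51.5 against 53.1 to 87.0. None of these sums overlapped between groups. Platelet markers were near 0, at 5.00 to 25.7 against 6.29 to 7.62 with Gp1bb at 0. Apart from the fits given, the part of these markers in the calls was not tested. Of these pathway and immediate early genes, Dusp1 was called in all 6 fits that left out a library and each of the others in 0 to 2 of 6, with adjusted p up to 0.157.

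**Figure D5:**
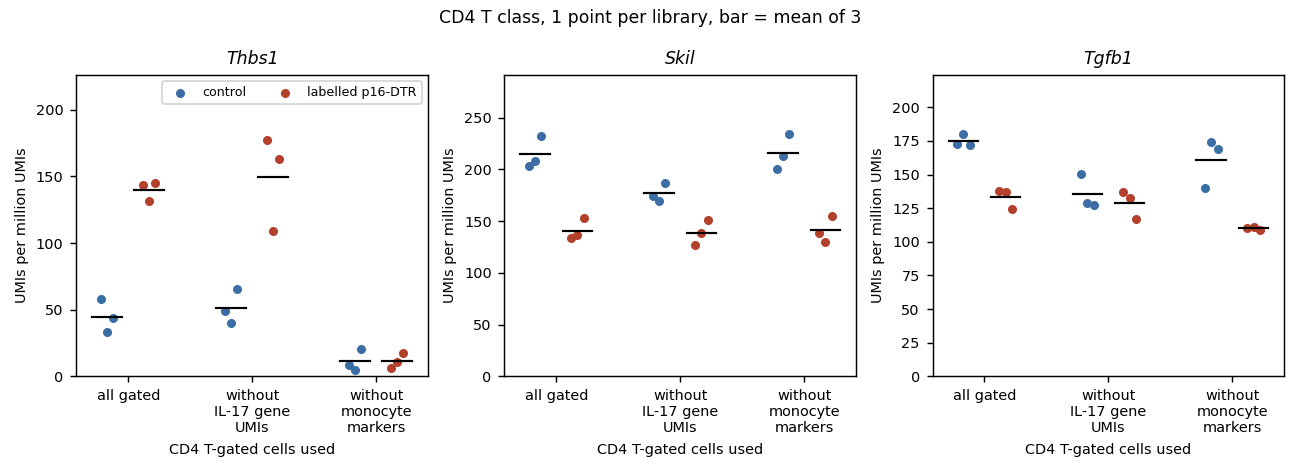
Level (y axis, CPM from 0) of Thbs1, Skil and Tgfb1 in CD4 T-gated cells, for all gated cells, without cells with a UMI of 4 interleukin 17 T cell genes, and without cells with 3 or more classical monocyte markers; control libraries are blue and libraries labelled p16-DTR red, 1 point per library with a bar at the mean of 3. Thbs1 overlaps between groups once the cells with monocyte markers are left out, Tgfb1 overlaps once the interleukin 17 gene cells are left out, and Skil does not overlap in any of the 3.

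Skil and Tgfb1 had like signs in other leukocytes without passing the test. Skil was lower without overlap in CD8 T cells at 99.0, 105 and 97.2 against 145, 123 and 148 CPM (log2 fold change -0.47, edgeR adjusted p = 0.222). Naive T cell genes in the CD8 T class summed to 1039 to 1222 against 1455 to 1659, also without overlap. Platelet markers there summed to 7.37 to 10.6 against 14.4 to 21.2, alveolar fibroblast markers to 29.8 to 39.9 against 40.7 to 73.5, ciliated markers to 1.695 to 3.42 against 3.49 to 4.21, arterial markers to 5.24 to 6.78 against 2.53 to 4.86 and basophil markers to 0.539 to 14.2 against 0 to 0.275. The part of these lists was not tested. Skil was likewise lower in classical monocytes at 100, 109 and 88.2 against 150, 119 and 140 (-0.44, adjusted p = 0.294), in B cells (-0.29), in neutrophils (-0.31) and, outside the leukocytes, in alveolar type 2 cells (-0.19). It was below 0 in 13 of 17 classes, while in venous, general capillary and lymphatic endothelial cells and pericytes it was above 0. The CD4 T effect was called different from those in general capillary (-0.89, edgeR adjusted p = 0.0154), venous (-0.75, adjusted p = 0.0218) and lymphatic (-0.70, adjusted p = 0.0440) endothelial cells.

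Tgfb1 was lower without overlap in natural killer cells, at 189, 202 and 147 against 277, 248.9 and 258 CPM (log2 fold change -0.57, edgeR adjusted p = 0.0628). In that class natural killer markers summed to 11804 to 12895 against 9621 to 10908 CPM, naive T cell genes to 544 to 815 against 843 to 871 and regulatory T cell genes to 32.9 to 69.2 against 84.8 to 114. Neutrophil markers summed to 16.7 to 103 against 2.70 to 7.37 and classical monocyte markers to 735 to 833 against 634 to 715. Alveolar type 1 markers summed to 193 to 198 against 136 to 179 and alveolar type 2 markers to 81.1 to 92.2 against 59.2 to 72.8. The part of these lists in the Tgfb1 value was not tested. Tgfb1 was also lower in nonclassical monocytes, at 236, 243 and 209 against 388, 275 and 299 (-0.48, adjusted p = 0.572), and in B cells (-0.26, adjusted p = 0.368). Its CD4 T effect was not called different from that in any of the 16 other classes. In platelets, where its level was highest, and in classical monocytes, which held 17.1% of its UMIs, the groups overlapped, at 779, 1126 and 889 against 752, 829 and 680 CPM in platelets and 293, 346 and 308 against 385, 345 and 342 in classical monocytes.

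The remaining pairs without overlap were Tgfb3 in B cells (log2 fold change -0.39, edgeR adjusted p = 0.397), Ltbp1 in venous cells (given above) and Thbs1 in lymphatic endothelial cells. The last stood at 357, 279 and 267 against 148, 237 and 240 CPM (0.53, edgeR adjusted p = 0.238). Tgfb2 was called in none of the 11 classes in which it passed the filter and was below 0 in 9, from -0.75 in B cells to 0.10. Inhba passed the filter in 4 classes, with values between -0.18 and 0.24.

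Over the 17 classes, the lists of other pathway genes gave the following counts of called pairs of a gene and a class, beside the 0.605% called over all genes and classes. Receptors had 2 of 129 (1.55%), both lower, and Smads and partners 2 of 132 (1.52%), both lower. Latency and activation genes had 3 of 176 (1.705%, 1 higher and 2 lower), activin and inhibin genes 2 of 39 (5.13%, 1 higher and 1 lower), and other TGF-beta target genes 5 of 173 (2.89%), all higher. These 5 were Pmepa1 and Klf10 in both venous and general capillary cells and Eln in venous cells. All lists were chosen with earlier results of these data known, so the counts are descriptions. Genes of the YAP and serum responses had 1 of 73 (1.37%), lower, and immediate early genes 16 of 234 (6.84%), of which 14 were lower. In all retained cells none of these lists had a called gene.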

How the data were processed

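Lung cells were measured by droplet 3' single-cell RNA sequencing (10x Chromium GEM-X 3' v4) in 6 libraries, 3 labelled p16-DTR and 3 control. The authors deposited raw UMI counts per gene and barcode, made with Cell Ranger 8.0.1 on mm10 per the submitters' processing notes. No column belonged to another series (0).

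Barcodes with at least 500 UMIs, 300 genes and at most 15% mitochondrial UMIs were retained. A marker was positive at 2 UMIs (1 for T cell classes). A cell was gated when it had at least 50% of the markers of 1 lineage and at most 1 marker of each other lineage. It also needed at least 3 and 50% of its class markers, and a lead of 0.15 in the share of positive markers over the next class. Mesothelial and platelet classes needed no lineage share, and epithelial markers in the first and leukocyte markers in the second were not limited. T cell classes needed any lead over the next class, 2 of the 3 Cd3 genes, and Cd4, Cd8a or Trdc without those of the other T cell classes. Apart from the mesothelial and platelet exceptions, cells with 2 or more lineage markers of another lineage were dropped. This left T cell-gated barcodes with monocyte markers in place. No doublet caller was run, and 4513 gated cells (6.59%) had exactly the number of markers required.

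UMIs were summed per library and class and tested with edgeR 4.0.16 in R 4.3.3 (quasi-likelihood test, low-count filter, TMM, Benjamini-Hochberg over all genes tested, threshold 0.05) in classes with at least 50 cells in every library. Each SE was the absolute log2 fold change divided by the square root of that test's F statistic. Differences between classes used a class-by-group term with library as a block. Alternatives were DESeq2 1.42.0, other scalings, no filter, a replicate block, stricter cells (1000 UMIs, 5%) and gates, and leaving out each library or platelet-gated cells. Leaving out CD4 T cells with interleukin 17 genes, platelet or myeloid markers, or lymphocytes with 3 of 5 classical monocyte markers was chosen after seeing the data.

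The fits were tested on simulated counts with 200 changed genes. In venous endothelial cells 75.5% of genes changed by 1 on the log2 scale were recovered, and in CD4 T cells 59.8%. Unchanged genes were called too: 12 in venous cells, beside 80 recovered genes changed by 1 and 86 changed by 2. In CD4 T cells 12 were called, beside 64 and 85. Profiles over classes used log2(level + 1) and genes of at least 10 CPM (UMIs per 1000000) in some class. The genes and lists were chosen with earlier results of these data known. The 9 genes were named in all cells, in their top 3 classes, and where called or without overlap at an unadjusted p under 0.05. Pathway genes were named where called in a class with a called member, at most 6 per list. Positions are from GENCODE M21, which matched 30934 of 31054 identifiers.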

Additional observations from a re-analysis of the deposited data

Results flagged for a closer look

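Effects in 1 class were set against the same contrast in each of the 16 other tested classes with a class-by-group term in edgeR, adjusted over all genes tested. For Skil, the CD4 T effect lay below that in general capillary endothelial cells by -0.89 on the log2 scale (adjusted p = 0.0154), venous endothelial cells by -0.75 (0.0218) and lymphatic endothelial cells by -0.70 (0.0440). It lay below the effect in all 16 classes, and 3 of these differences passed.

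For Smad7, the venous effect exceeded that in natural killer cells by 0.96 (edgeR adjusted p = 0.0302) and in aerocytes by 0.74 (0.0404), and lay above all 16 classes. For Thbs1, the CD4 T effect exceeded that in general capillary cells by 1.64 (edgeR adjusted p = 0.0156), classical monocytes by 1.39 (0.0224), nonclassical monocytes by 1.97 (0.0322), B cells by 2.58 (0.0476) and aerocytes by 2.17 (0.0498). These 5 Thbs1 differences include the CD4 T cells with monocyte markers, without which the CD4 T value was -0.01. They were not recomputed without those cells. The Tgfb1 effect in CD4 T cells differed from none of the 16 by this test.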

How the results depend on the processing

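The edgeR fits called 4 pairs of a TGF-beta gene and a class. DESeq2 called 11, no filter on low counts 14, and leaving out 1 library 2 to 4. Leaving out CD4 T cells with interleukin 17 genes gave 2 and those with platelet or myeloid markers 1. In all cells DESeq2 called 1 of the 9 genes where edgeR called 0. Over all genes and classes, 1236 calls became 4961 with DESeq2, 6018 with no filter, 707 with the replicate block and 287 to 838 without 1 library. In all cells 0 genes became 2699 with DESeq2.

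In all cells the log2 fold change turned for Ltbp1 without p16-DTR replicate 2 and for Inhba without control replicate 1. For Thbs1 it turned without p16-DTR replicate 2, control replicate 2 or control replicate 3. The values without 1 library ran from -0.0258 to 0.2119 for Ltbp1, from -0.3861 to 0.0736 for Inhba and from -0.0739 to 0.2157 for Thbs1. None of these was a call. In CD4 T cells it turned for Thbs1 without cells with 3 or more monocyte markers (-0.0097) and for Smad3 without interleukin 17 gene cells (0.0051) or without platelet or myeloid marker cells (0.20). These fits hold fewer cells, and the cause was not tested.

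Same-numbered libraries correlated at 0.123, -0.021 and 0.131 in their deviations, so the numbers were not taken as pairs. The replicate block also gave 4 called pairs, losing Tgfb1 in CD4 T cells (adjusted p = 0.0738) and adding Smad7 in alveolar fibroblasts (0.0487). With 3 libraries a group, an exact permutation test of a single value cannot go below 0.1.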
